A study of Homo sapiens with 2 samples.

Results

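Collagen VI is built from 3 chains, alpha 1, alpha 2 and alpha 3, encoded by COL6A1, COL6A2 and COL6A3, and the deposited list of ADAR1 CLIP-seq clusters held 21 clusters in their gene ranges, of 23782 clusters in all. ADAR1 edits double-stranded RNA by turning adenosine into inosine. CLIP-seq (crosslinking, immunoprecipitation and sequencing) maps the RNA that a protein touches in living cells. The cells were U87MG, an established human glioblastoma (astrocytoma) line at passage 6, untreated apart from ultraviolet crosslinking on ice. The series has 1 library labelled AB1 and 1 labelled AB2. The design text names different antibodies to ADAR1, but the labels of AB1 and AB2 give 1 catalogue number. The authors deposited a single list for both libraries, which gives the position and strand of every cluster and classes it as Alu or non-Alu. It has no tag count, score or library column, so depth is unknown, no cluster can be assigned to an antibody, there are no replicates and no test was made. There is no input or control immunoprecipitation among the samples used here, so cluster number cannot be told apart from transcript abundance.

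A cluster was counted for a gene when its midpoint lay in the hg19 range of the gene and its strand was that of the gene. The ranges were 238232600 to 238323100 on the minus strand of chromosome 2 for COL6A3, 47401600 to 47425000 on the plus strand of chromosome 21 for COL6A1, and 47518000 to 47552800 on the same strand for COL6A2. The ranges are rounded: they exceed the lengths of the genes in GENCODE release 29 by 128 bases for COL6A3, 87 bases for COL6A1 and 48 bases for COL6A2, and no other annotated gene overlaps any of the 3 genes there. The 3 genes were chosen by the number of listed clusters in their ranges, so cluster number and crowding are given as descriptions and support nothing.

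Collagen VI forms beaded microfibrils in the matrix around cells, where it links the basement membrane and cells to other matrix fibres. The 3 chains fold into a heterotrimer whose middle part is a triple helix, and large globular ends of von Willebrand factor A modules lie on both sides of it. The alpha 3 chain is much larger than the others, because its amino-terminal end carries a long row of such modules, and a fragment of its carboxy-terminal end is released as the signalling peptide endotrophin. A cell-surface receptor of collagen VI, the proteoglycan NG2 (CSPG4), is well known in glioma. Inherited changes in any of the 3 genes cause Bethlem myopathy and Ullrich congenital muscular dystrophy.

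In the triple helix every 3rd amino acid is glycine, encoded by GGN. The stretches below, from COL6A3 and COL6A2, are shown because they come from the part of the RNA that makes these chains collagens. Each is the start of the longest unbroken in-frame run of GGN followed by 2 other codons in the principal GENCODE release 29 transcript, 72 bases long, with the first codon of each triplet, GGN, in capitals.
COL6A3: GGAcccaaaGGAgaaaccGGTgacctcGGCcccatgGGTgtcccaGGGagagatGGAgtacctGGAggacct
COL6A2: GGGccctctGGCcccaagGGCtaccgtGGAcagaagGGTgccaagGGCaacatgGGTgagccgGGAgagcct
The longest run held 45 triplets in COL6A3, starting at codon 2168, and 87 triplets in COL6A2, starting at codon 256. This run took up 4.25% of the coding sequence of COL6A3 and 25.6% of that of COL6A2. It ends at any break in the pattern, so these values do not give the size of the whole helix, which was not measured. The clusters could not be placed in these sequences, because neither a genome nor an annotation of hg19 was at hand. For the same reason no cluster is assigned to an exon, an intron or an untranslated region, and the sequences under the clusters are not shown.

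The alpha 3 gene carried most of the clusters. COL6A3 (ENSG00000163359.15) had 16 clusters, COL6A2 (ENSG00000142173.14) had 4 and COL6A1 (ENSG00000142156.14) had 1. The exact Poisson 95% intervals, which cover counting error only, were 9.15 to 26.0 clusters for COL6A3, 1.09 to 10.2 for COL6A2 and 0.0253 to 5.57 for COL6A1.

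The genes differ in size as well as in cluster number. COL6A3 had 1.77 clusters per 10 kb of its 90.5 kb range (exact Poisson 95% interval 1.01 to 2.87). COL6A2 had 1.15 per 10 kb of 34.8 kb (0.313 to 2.94) and COL6A1 had 0.427 per 10 kb of 23.4 kb (0.0108 to 2.38). The 3 intervals overlap, but nothing is read from that. They cover counting error only, treat clusters of 1 transcript as independent, and concern genes chosen for their cluster number. The differences were not tested. Per kb of principal transcript, the density was 1.49 clusters for COL6A3 (10749 bases, 44 exons), 1.16 for COL6A2 (3461 bases, 28 exons) and 0.236 for COL6A1 (4238 bases, 35 exons). On both scales the order was COL6A3, COL6A2, COL6A1, and COL6A1 was the lowest although its principal transcript is longer than that of COL6A2.

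The clusters covered little of each gene. They summed to 3806 bases in COL6A3, 4.21% of its range. In COL6A2 they summed to 1008 bases, 2.90% of the range, and the single COL6A1 cluster of 183 bases made up 0.782%. Set against the length of the principal transcript alone, the covered bases equal 35.4% for COL6A3, 29.1% for COL6A2 and 4.32% for COL6A1. That is a comparison of sizes only, since it is not known which clusters lie in exons.

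**Figure D1:**
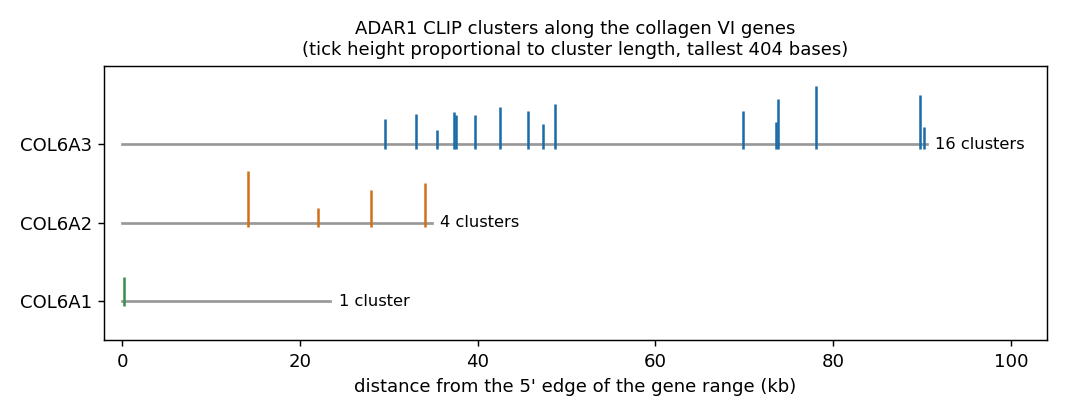
Position of the ADAR1 CLIP clusters along the ranges of COL6A3, COL6A2 and COL6A1, as distance from the 5' edge in kb, with the height of each tick in proportion to cluster length. Split at gaps over 20 kb, the 16 COL6A3 clusters form a group of 10 and a group of 6 separated by 20.9 kb. The 4 COL6A2 clusters lie from 14.0 kb onwards, and the only COL6A1 cluster lies at the 5' edge.

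All 21 clusters were of the class that the authors' list calls non-Alu, while most of the list is classed as Alu, after the Alu repeats. In COL6A3 the counts were 16 non-Alu and 0 Alu, in COL6A2 4 and 0, and in COL6A1 1 and 0. Over the whole list 15.1% of clusters were non-Alu. The whole list is a loose comparison. Among the windows with many non-Alu clusters described below, the median window other than that of COL6A3 also held 0 Alu clusters. The lack of Alu clusters therefore does not set COL6A3 apart from those windows. An Alu share of 0 of 21 clusters allows a share of up to 14.3% by counting error alone, and clusters of the same transcript are not independent. There was also no cluster of either class on the opposite strand within any of the 3 ranges.

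Split at gaps over 20 kb, a chosen cut, the COL6A3 clusters fell into 2 groups along the genomic range. Nothing was listed at the 5' end of the range. In 4 equal parts from the 5' to the 3' edge, the range held 0, 7, 3 and 6 clusters. The first cluster, chr2:238293448-238293639, began 29.5 kb from the 5' edge. The last, chr2:238232835-238232976, ended 0.235 kb from the 3' edge. The clusters thus left the first 29.5 kb of the range empty and reached almost to its end. These are genomic distances, not positions in the mRNA. The longest intron of the principal transcript has 17.1 kb, and how much of the empty part is intron is not known.

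The upstream group held 10 clusters in 19.3 kb, from 238274311 to 238293639, and covered 11.3% of that stretch. From 5' to 3' the clusters were 192, 224, 121, 236, 218, 218, 268, 246, 163 and 290 bases long. The gaps between them had a median of 1870 bases and ran from 22 to 3324 bases. The 22-base gap, between chr2:238285669-238285904 and chr2:238285429-238285646, was the smallest in the 3 genes. The left edges of successive clusters were 240 to 3548 bases apart, with a median of 2088 bases.

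The size of these steps can be set beside the gene model. In the principal COL6A3 transcript 11 of 44 exons are longer than 500 bases. The first 10 of them, exons 3 to 38, are 573 to 699 bases long, and their starts are 1891 to 26136 bases apart, with a median of 2683 bases. The median exon of the transcript has 95 bases and the median intron 1245 bases. Exons of the longer size are known to encode the von Willebrand factor A modules of the alpha 3 chain. The 10 exons span 54.8 kb, while the cluster steps come from the 19.3 kb of the upstream group only. The 2 medians thus do not describe like stretches. Whether the clusters lie in those exons was not tested.

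A gap of 20.9 kb, the widest in the 3 genes, separated the upstream group of COL6A3 from the downstream one. The downstream group held 6 clusters in 20.5 kb, from 238232835 to 238253380, and covered 7.93% of it. From 5' to 3' their lengths were 241, 172, 322, 404, 349 and 142 bases. The median was 281.5 bases, against 221 bases in the upstream group. The gaps in the downstream group had a median of 3476 bases and ran from 45 to 11326 bases. A cut below the 11326-base gap would split this group again, so the groups and their medians depend on the cut of 20 kb. Close pairs stood at 2 places in this group: clusters of 172 and 322 bases 45 bases apart, and clusters of 349 and 142 bases 180 bases apart at the 3' edge of the gene. The 404-base cluster, chr2:238244832-238245235, was the longest of the 21, and only the 121-base cluster of the upstream group, chr2:238287583-238287703, was shorter than the 122-base cluster of COL6A2.

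COL6A2, which encodes the alpha 2 chain, had 4 clusters that were spread widely. They lay at chr21:47532021-47532381, chr21:47539944-47540065, chr21:47545852-47546094 and chr21:47551971-47552252, and were 361, 122, 243 and 282 bases long. The first began 14.0 kb from the 5' edge and the last ended 0.548 kb from the 3' edge. The gaps were 7562, 5786 and 5876 bases, so no cluster of COL6A2 had a neighbour within 1000 bases. In 4 equal parts from 5' to 3' the counts were 0, 1, 1 and 2. COL6A3 and COL6A2 thus both had an empty 5' part of the genomic range and a last cluster near the 3' edge. That cluster ended at 0.235 kb in COL6A3 and 0.548 kb in COL6A2. The longest intron of the principal COL6A2 transcript has 13.3 kb, so the empty 5' part need not be an empty part of the mRNA.

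COL6A1, which encodes the alpha 1 chain, had a single cluster, near the 5' edge of its range. This cluster, chr21:47401664-47401846, began 0.064 kb from the 5' edge and ended 23.2 kb from the 3' edge. It was 183 bases long. The range is 87 bases longer than the gene, so whether the cluster starts inside the annotated gene was not determined. A single listed cluster gives no pattern along a gene, and without tag counts places with no cluster cannot be called unbound.

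COL6A1 and COL6A2 are neighbours on chromosome 21 and are read in the same direction, yet clusters were listed only within them. The 93.0 kb between the 2 ranges held 0 clusters on either strand. The nearest same-strand cluster upstream of COL6A1 was a non-Alu cluster at chr21:47272201-47272573, 129.0 kb away. Downstream of COL6A2 the nearest was an Alu cluster at chr21:47710736-47710864, 157.9 kb away. The 5 clusters of the COL6A1 and COL6A2 genes made up 12.8% of the 39 non-Alu clusters of chromosome 21.

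COL6A3 stood even further from any other cluster on its strand. The nearest upstream was an Alu cluster at chr2:239092967-239093130, 769.9 kb from the edge of the range. The nearest downstream was an Alu cluster at chr2:237377812-237377994, 854.6 kb away. On the opposite strand the nearest cluster, a non-Alu one, was 86.3 kb away. The range edges therefore do not decide any count, and the COL6A3 clusters were 16 of the 301 non-Alu clusters of chromosome 2 (5.32%).

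Same-strand Alu clusters were further from all 21 clusters than the median distance for other non-Alu clusters. Alu clusters on the opposite strand were not part of this distance. None of the 21 clusters had a same-strand Alu cluster within 10 kb, which allows a share of up to 14.3% by counting error alone, while 19.4% of all non-Alu clusters in the list had one. The nearest same-strand Alu cluster was 799.3 to 855.2 kb away for the COL6A3 clusters, 158.5 to 178.4 kb for those of COL6A2 and 308.9 kb for that of COL6A1. The median over the 3561 other non-Alu clusters was 42.0 kb, with quartiles of 13.8 and 120.5 kb. Of these others, 132 (3.71%) were at least as far from an Alu cluster as the closest COL6A3 cluster, 732 (20.6%) as the closest COL6A2 cluster and 399 (11.2%) as the COL6A1 cluster. In the 970 other non-Alu clusters in 100 kb strand windows with 3 or more, 18.4% had an Alu cluster within 10 kb, and the median distance was 49.9 kb. The clusters of 1 gene share this distance, so it amounts to 3 places and not to 21 values. The 14.3% limit treats clusters as independent and is therefore too low, so it does not set the genes apart from the list.

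**Figure D2:**
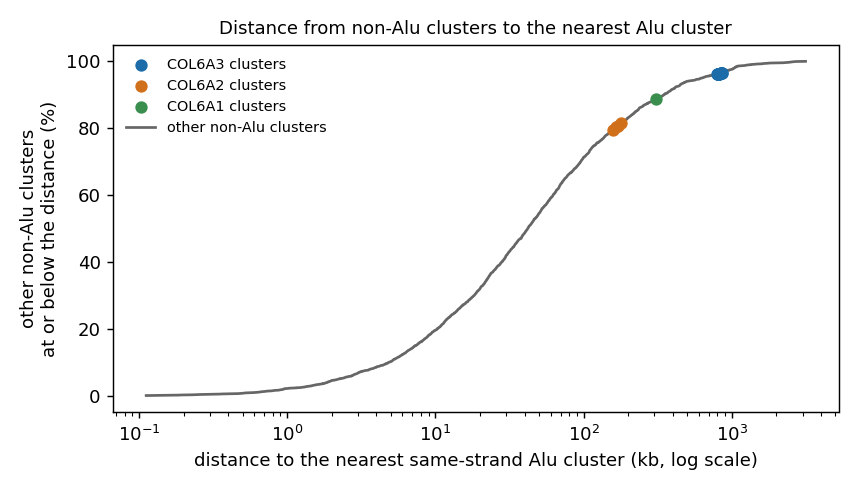
Distance from each non-Alu cluster to the nearest Alu cluster on the same strand (kb, log scale) against the share of the 3561 other non-Alu clusters at or below that distance, drawn as a line. The COL6A3 clusters (799.3 to 855.2 kb), the COL6A1 cluster (308.9 kb) and the COL6A2 clusters (158.5 to 178.4 kb) lie on the upper part of the curve, to the right of the 42.0 kb median of the others.

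The choice of genes did not use length directly, but whether length is independent of cluster number was not tested. The median length was above that of the other non-Alu clusters, within its counting error. The median was 236 bases over the 21 clusters (quartiles 183 and 282, SD 77.5), against 191 bases over the other non-Alu clusters (quartiles 141 and 222, SD 80.1). The exact 95% interval of the 236-base median was 183 to 282 bases, which contains the 191-base median of the others. This interval treats the 21 clusters as independent, which clusters of the same transcript are not. By gene, the median was 230 bases for COL6A3 and 262.5 bases for COL6A2, and the COL6A1 cluster had 183 bases. Of the 21 clusters, 14 were longer than the 192-base median of the whole list: 11 of 16 in COL6A3, 3 of 4 in COL6A2 and 0 of 1 in COL6A1. The ranges overlap broadly, since the shortest COL6A3 cluster, of 121 bases, was longer than only 16.7% of the other non-Alu clusters and the longest, of 404 bases, was longer than 98.7% of them.

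PCR products of 75 to 250 bases were selected per the labels' protocols, so a cluster over 250 bases is longer than any selected product. Such clusters numbered 7 of 21 (33.3%, exact 95% interval 14.6 to 57.0%), with 5 of 16 in COL6A3, 2 of 4 in COL6A2 and 0 of 1 in COL6A1. Over all non-Alu clusters of the list the share was 9.74%, and over the whole list 8.27%. Among 970 other non-Alu clusters in 100 kb strand windows with 3 or more non-Alu clusters it was 14.3%, and their median length was 197 bases. The interval treats clusters as independent, which clusters of 1 transcript are not.

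**Figure D3:**
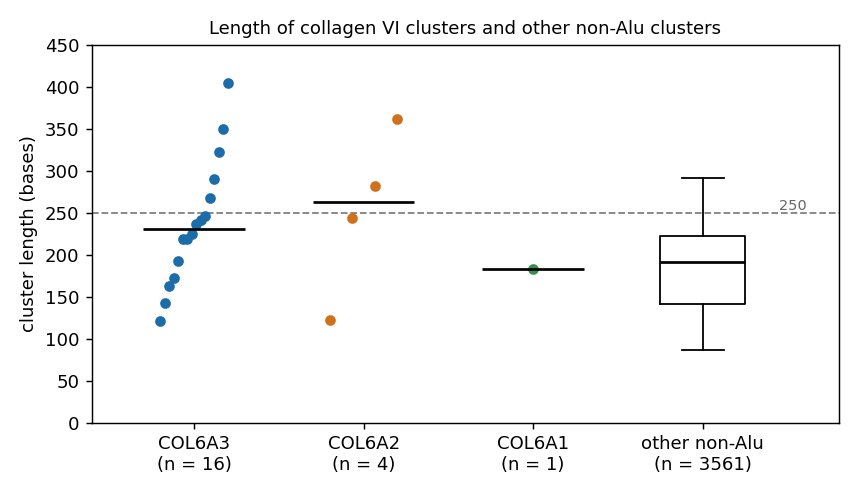
Length in bases of each cluster in COL6A3, COL6A2 and COL6A1 (points, with the median as a bar) and of the 3561 other non-Alu clusters (box from the lower to the upper quartile with the median, whiskers from the 5th to the 95th percentile). The COL6A3 clusters run from 121 to 404 bases around a median of 230, against a median of 191 for the others; the dashed line marks 250 bases, the upper limit of the selected PCR products.

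Close neighbours were listed in COL6A3. A same-strand neighbour within 1000 bases was found for 6 of 16 COL6A3 clusters, 0 of 4 in COL6A2 and 0 of 1 in COL6A1. Over all non-Alu clusters of the list the share was 17.1%. The 3 genes together gave 6 of 21 clusters (28.6%, exact 95% interval 11.3 to 52.2%), and other non-Alu clusters in windows with 3 or more gave 42.1%. The COL6A3 value of 37.5% lies between those shares, and crowding is what the genes were picked for. The 6 clusters form 3 pairs, so each pair is counted from both sides. The interval treats clusters as independent, which these are not.

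Counted in 10 kb strand windows, COL6A3 clusters fell in 6 windows, of which 5 held 2 or more clusters and 3 held 3 or more, with at most 5 in a window. COL6A2 clusters fell in 3 windows, 1 of them with 2 clusters, and COL6A1 in 1 window. Among all 20989 such windows with at least 1 cluster, 11.4% held 2 or more and 1.33% held 3 or more.

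COL6A3 can be set beside the other places of the genome where non-Alu clusters crowd. Including its own, 12 strand windows of 100 kb held 10 or more non-Alu clusters, and the COL6A3 window, with 16, came after windows with 26 and 21. Its median cluster length of 230 bases was exceeded in 1 of the 11 other windows, whose medians ran from 135.5 to 238.5 bases. Its share of clusters over 250 bases, 31.2%, was likewise exceeded in 1 of the 11, which ranged from 0 to 42.3%. The COL6A3 window held 0 Alu clusters. The median of the 11 other windows was also 0, and 3 of the 11 held more, with at most 3 in a window.

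In spacing COL6A3 was among the middle of these windows. Its clusters spanned 60.8 kb and covered 6.26% of that span, while the other windows spanned 10.3 to 89.6 kb with a median cover of 5.56%. The median gap was 2196 bases in COL6A3 and ranged from 116 to 5665 bases in the others. The share with a neighbour within 1000 bases was higher in 7 of the 11 others. By cluster number it was exceeded in 2 of the 11, and these ranks carry no test.

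**Figure D4:**
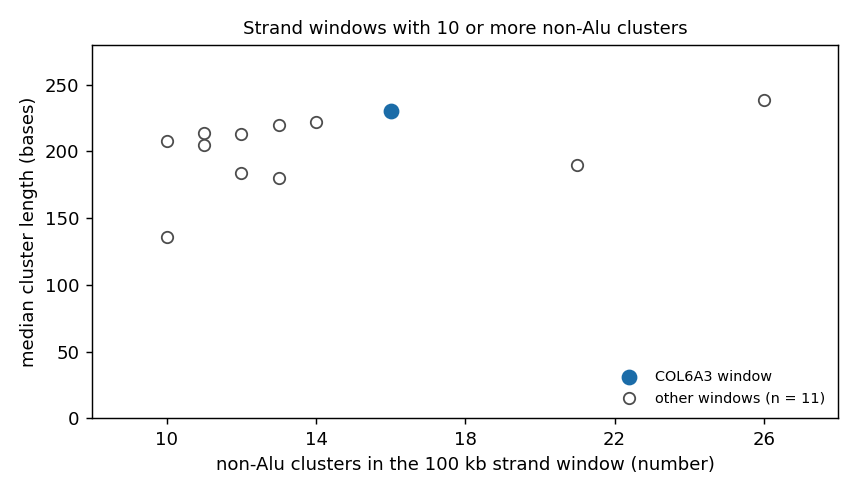
Median cluster length in bases against the number of non-Alu clusters for the 12 strand windows of 100 kb with 10 or more non-Alu clusters, with the COL6A3 window filled and the 11 others open. The COL6A3 window lies at 16 clusters and 230 bases, and 1 other window has a higher median, 238.5 bases at 26 clusters.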

How the data were processed

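The values used are the cluster starts, ends, strands and classes that the authors deposited in 1 list for both libraries. Linked RNA was amplified by PCR for 23 cycles, per the labels' protocols. Reads were processed with cutadapt 1.1 and Novoalign 2.08.22 on build hg19, per the submitters' processing notes. For the cluster caller, its thresholds, the pooling of libraries, reads with several matching places and the rule for the Alu class, the method is not given in the sources used here. Each of these can change the number, length and class of clusters. Starts were read as counted from 0 and are printed counting from 1.

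Distances were measured between nearest edges on the same strand, and distances along a gene from the rounded range edges. Intervals of counts and shares are exact Poisson or Clopper-Pearson 95% intervals, and that of the median length is an exact 95% interval. A share of 0 among the 21 clusters is given with the limit of 3 counts; the 4 COL6A2 clusters and the 1 COL6A1 cluster are too few for a useful limit. Gene models and the printed coding stretches come from GENCODE release 29 on GRCh38, and no coordinates were carried between builds. The coding stretch of COL6A1 is not reported here. A planned list of partner genes was not analysed here, for want of an hg19 annotation. Python 3.11.15, numpy 2.4.6, pandas 2.3.3, scipy 1.17.1 and matplotlib 3.10.9 were used, and counting was tested on simulated clusters. The genes, comparisons and windows were chosen with earlier results of these data known. Clusters named by position are the longest, shortest, first and last of a gene, the closest pair, the widest gap and the nearest outside; all 4 COL6A2 clusters are given.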

Additional observations from a re-analysis of the deposited data

How the results depend on the processing

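Of 40 alternative values, 35 stayed within the set range (1.5 times for counts, the exact 95% interval for shares and medians). Many of these could not move, so the 35 is no measure of robustness. The non-Alu share, for example, stays at 100% when every cluster is non-Alu. Counting any overlap, ignoring strand or widening the ranges by 5000 bases left the counts at 16, 1 and 4 for COL6A3, COL6A1 and COL6A2. That outcome was fixed in advance, because no other cluster lies in or near the ranges on either strand. Keeping only clusters at or above the 192-base median of the list left 12, 0 and 3 clusters, so the single COL6A1 cluster was lost. The covered share was then 3.54% for COL6A3, 0% for COL6A1 and 2.55% for COL6A2, lower by construction. Merging clusters up to 50 bases apart gave 14 clusters in COL6A3 and 19 in all, and lowered the share with a neighbour within 1000 bases to 10.5%, because merging removes 2 of the 3 close pairs. The median length ranged from 236 to 246 bases. No paired analysis was possible because AB1 and AB2 are 1 library each in a single pooled list, and neither could be left out. With no tag counts, weak clusters and places without a cluster cannot be judged.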
